A study of Mus musculus with 15 samples.

Results

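The 35 genes described here encode the glucose and lactate transporters, the enzymes of glycolysis and their regulators, the pyruvate dehydrogenase complex with its kinases, and enzymes of the tricarboxylic acid (TCA) cycle. They were chosen by name. A gene counted as measured where the annotation of the Affymetrix Mouse Gene 1.0 ST array gave a probe set that symbol and no other, and where several probe sets qualified, the probe set with the highest mean over the 15 arrays was used. This left 33 of the 35 genes, among 19937 genes measured in all. Gpi1, which isomerises glucose 6-phosphate, and Eno1, an enolase, had no probe set under that symbol and were not analysed here.

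Glycolysis splits glucose into pyruvate in the cytosol, and its rate is set mainly at hexokinase and phosphofructokinase. Pyruvate is either reduced to lactate, which leaves the cell through monocarboxylate transporters, or enters the mitochondrion, where pyruvate dehydrogenase turns it into acetyl-CoA for the TCA cycle. Pyruvate dehydrogenase kinases switch that step off. Dendritic cells (DCs) activated through pattern recognition receptors are known for raising glycolysis early, partly through control of enzyme activity rather than of transcription.

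The arrays measured mRNA in D1 cells, a long-term splenic DC line from C57BL/6 mice. A single line carrying no genetic change was used throughout, so all groups share its background. Cells were left nontreated, were stimulated with 10 µg/ml curdlan for 2 h or 4 h, or were given curdlan together with FK506 for 2 h or 4 h, with 3 arrays labelled as biological replicates in each of the 5 groups. Curdlan is a beta-glucan that engages the receptor dectin-1, and FK506 (tacrolimus) blocks the phosphatase calcineurin and thereby the activation of NFAT transcription factors. The same nontreated arrays served as the control for both times. No nontreated group matched to 2 h or 4 h is among the 5 groups. In comparisons across time or with nontreated cells, curdlan and time in culture therefore cannot be told apart. FK506 without curdlan was not analysed here, so every FK506 comparison is made on a curdlan background.

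Levels are log2 intensities normalised across arrays by RMA (robust multi-array average), and a difference of 1 is a 2-fold change. A level of 1 gene cannot be set against that of another. Genes are named as called where the Benjamini-Hochberg adjusted p from limma was under 0.05 and the change was at least 1.5-fold (log2 0.58). Changes that met the adjusted p alone are given as such. Counts at an unadjusted p under 0.05 are given without the share of all genes, so no excess is read from them. Array medians over all probe sets lay between 6.45 and 6.57. Nontreated replicate 1 and replicate 3 of curdlan 2 h had the highest of these medians (6.57 and 6.53) and the lowest mean correlations with the other arrays of their group (0.993 and 0.995). Their array weights from limma were also the lowest, 0.0781 and 0.119, although that estimate stopped before it converged. Values without 1 of them are given for the Hk2 and Idh1 calls that they alter. Without both, the number lower on the adjusted p alone went from 6 to 5 at 2 h of curdlan and from 13 to 15 at 4 h. For curdlan against curdlan with FK506 at 4 h it went from 3 to 6, and the number higher from 3 to 4. Marker levels are given as a rough guide to what the RNA holds, since probes of different genes are not on 1 scale. The means of 10 DC markers ran from 5.83 for Flt3 to 12.9 for H2-Ab1, with Itgax at 12.2 and the dectin-1 gene Clec7a at 10.5, and none was called in any comparison. Macrophage markers were also present, with means of the 5 measured ones from 7.63 for Mertk to 11.8 for Csf1r. No T cell, B cell, fibroblast or neutrophil marker had a mean above 7.33. In bulk RNA of this kind, fewer cells of a type and less RNA per cell cannot be told apart.

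A few enzymes of the set differed between curdlan and nontreated cells while most moved little. At 2 h, 1 of the 33 genes was called higher, Pfkp, and none lower, where 2.20% of all genes were called higher and 1.40% lower. On the adjusted p alone, 2 genes were higher and 6 lower at 2 h, beside 7.19% and 12.9% of all genes. At 4 h, Pfkp was called higher and Pfkm, Pdk1 and Idh1 lower, 1 and 3 of 33 genes, where 5.05% of all genes were called higher and 4.15% lower. On the adjusted p alone, 2 genes were higher and 13 lower at 4 h, where 14.1% of all genes were higher and 23.2% lower. The median log2 fold change of the 33 genes at 4 h was −0.10 beside −0.12 over all genes. The numbers lower depend on the scaling. Over the 19937 genes tested, array medians lay between 6.67 and 6.94, with the highest in nontreated replicate 1. When each array was centred on this median, the number lower on the adjusted p alone went from 6 to 1 at 2 h (6.72% of all genes). At 4 h it went from 13 to 6 (12.9% of all genes), the 6 being Slc16a3, Pfkm, Pdk1, Idh1, Idh2 and Fh1. At 2 h it was 0 when only the nontreated and curdlan 2 h arrays were fitted. The plot of curdlan changes by role shows where in the pathway the changes lie.

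**Figure D1:**
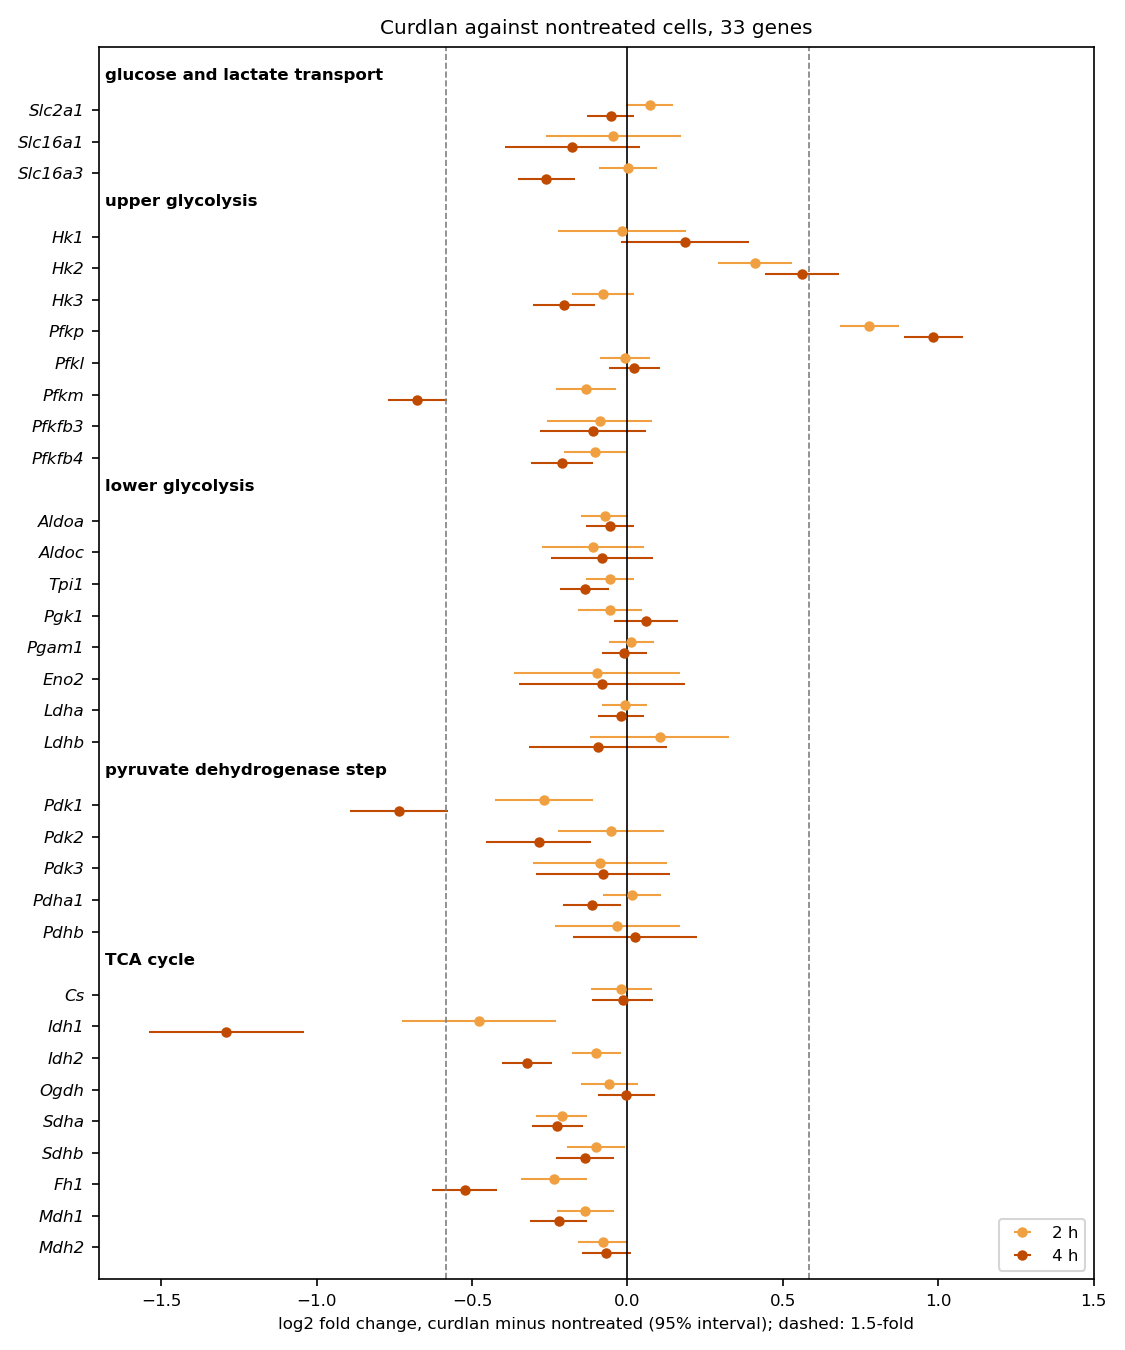
Log2 fold change of each of the 33 measured genes, curdlan minus nontreated, at 2 h and 4 h, grouped by role, with points for the estimate and lines for its 95% interval from limma (3 arrays per group); dashed lines mark 1.5-fold. Pfkp lies past the right dashed line at both times, Pfkm, Pdk1 and Idh1 lie past the left one at 4 h, and the 8 lower glycolysis genes stay between them.

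The transporters moved little. Slc2a1 encodes GLUT1, the main glucose importer of activated leukocytes. Its log2 level was 11.92, 11.91 and 11.94 in nontreated cells, 11.96, 12.01 and 12.01 after 2 h of curdlan, and 11.87, 11.89 and 11.85 after 4 h. The 2 h arrays lay just above the nontreated ones and the 4 h arrays just below, without overlap. The log2 fold changes were 0.07 ± 0.04 (SE) at 2 h and −0.05 ± 0.04 at 4 h, with limma adjusted p of 0.21 and 0.23. The 95% interval at 4 h, −0.13 to 0.02, lies within 1.5-fold. With FK506 present, Slc2a1 read 12.20, 12.21 and 12.24 at 2 h and 11.96, 11.91 and 11.93 at 4 h. The 2 h arrays with FK506 were the highest of all 15 arrays, 0.29 ± 0.04 above nontreated cells (limma adjusted p = 4.3e-05) and below 1.5-fold. Of the monocarboxylate transporters that carry lactate, Slc16a3 (MCT4) was lower at 4 h by the adjusted p alone (−0.26, limma adjusted p = 0.00025). Slc16a1 (MCT1) had a mean level under the lower quartile of all genes, the only measured gene of the set there, and its intervals bound any change at 4 h to 0.39 on the log2 scale.

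Upper glycolysis held both rises. Pfkp encodes the platelet-type subunit of phosphofructokinase, the enzyme that commits sugar phosphate to glycolysis. Its log2 level was 10.84, 10.80 and 10.74 in nontreated cells, 11.57, 11.51 and 11.62 after 2 h of curdlan, and 11.75, 11.79 and 11.78 after 4 h. Every curdlan array lay above every nontreated array, and every 4 h array above every 2 h array. The log2 fold change was 0.78 ± 0.04 at 2 h (limma adjusted p = 1.9e-08) and 0.98 ± 0.04 at 4 h (limma adjusted p = 6.5e-10), or 1.71-fold and 1.98-fold. The further step from 2 h to 4 h, 0.21 ± 0.04, had an adjusted p of 0.0029 and was below 1.5-fold.

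The muscle-type subunit gene Pfkm went the other way. It read 8.09, 8.05 and 8.09 in nontreated cells, 7.95, 7.92 and 7.96 at 2 h, and 7.36, 7.43 and 7.42 at 4 h. The 3 groups do not overlap, and most of the drop lies between 2 h and 4 h (−0.54 ± 0.04, limma adjusted p = 6.9e-07). At 4 h Pfkm fell by 0.68 on the log2 scale (limma adjusted p = 2.9e-08), a 1.60-fold drop. That call was lost when arrays were centred on their medians, where the change was −0.57. The liver-type subunit Pfkl had log2 fold changes of −0.01 at 2 h and 0.02 at 4 h. The 3 subunit genes of this enzyme therefore had a rise, a fall and no called change.

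Hk2 encodes hexokinase 2, the inducible enzyme that traps glucose in the cell. It read 9.65, 9.66 and 9.50 in nontreated cells, 10.03, 9.92 and 10.10 at 2 h, and 10.14, 10.19 and 10.17 at 4 h. All curdlan arrays lay above the nontreated arrays, and the 4 h arrays above the 2 h arrays. The log2 fold change was 0.41 ± 0.06 at 2 h (limma adjusted p = 8.5e-05) and 0.56 ± 0.06 at 4 h (limma adjusted p = 1.8e-06), the latter 1.48-fold and just under the threshold. Without nontreated replicate 1 it was 0.59 and called, and with arrays centred on their medians it was 0.67 and called. Hk3, a myeloid hexokinase, was lower at 4 h by the adjusted p alone (−0.20), but not with arrays centred (−0.10, limma adjusted p = 0.36).

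Hk1, the housekeeping hexokinase, has probe sets that disagree. The probe set with the highest mean carries an accession that the annotation gives to 17 probe sets, 15 of which also name the ribosomal protein gene Rpl17, and its values lay between 12.02 and 12.60 with no call. The other Hk1 probe set, which the annotation ties to RefSeq transcripts, read 9.90, 9.96 and 10.02 in nontreated cells, 10.12, 10.14 and 10.09 at 2 h, and 9.81, 9.85 and 9.89 at 4 h. There the 2 h arrays were the highest and the 4 h arrays the lowest, with changes of 0.16 (limma adjusted p = 0.013) and −0.11 (limma adjusted p = 0.052). The level of Hk1 is therefore uncertain.

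Pfkfb3 and Pfkfb4 make and break down fructose 2,6-bisphosphate, an activator of phosphofructokinase. Pfkfb4 read 8.24, 8.30 and 8.21 in nontreated cells, 8.18, 8.20 and 8.06 at 2 h, and 8.01, 8.07 and 8.03 at 4 h. The 4 h arrays lay below all nontreated arrays and overlapped those at 2 h. The change at 4 h was −0.21 ± 0.05 (limma adjusted p = 0.0025). With arrays centred on their medians it was −0.10 and no longer met the adjusted p (limma adjusted p = 0.33). Pfkfb3 changed by −0.11 (limma adjusted p = 0.26).

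**Figure D2:**
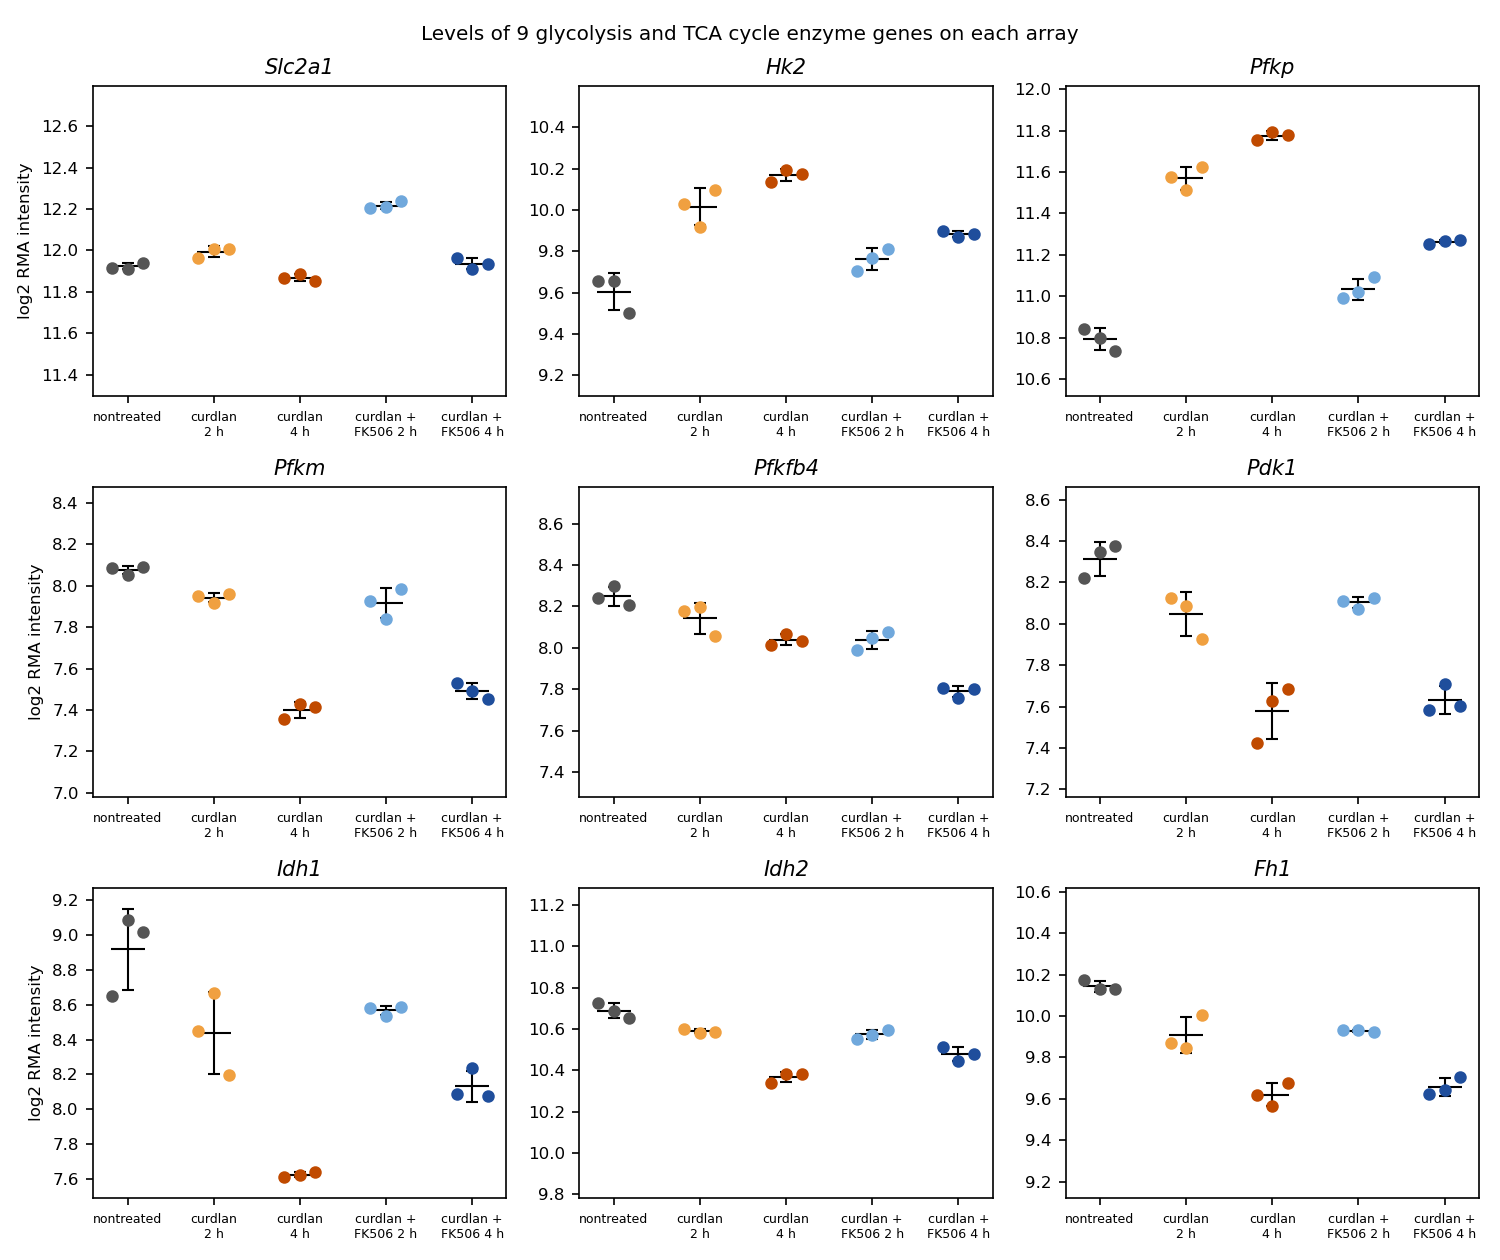
Log2 RMA intensity on each array for 9 genes in the 5 groups, with points for arrays, a horizontal line for the group mean and bars for 1 SD (n = 3); each panel has its own vertical scale. Pfkp and Hk2 are highest after curdlan and lie in between with FK506, while Pfkm, Pdk1, Idh1 and Fh1 are lowest at 4 h with or without FK506.

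None of the 8 measured lower glycolysis genes was called in any of the 8 comparisons by limma. These are the aldolases Aldoa and Aldoc, the triose phosphate isomerase Tpi1, the phosphoglycerate kinase Pgk1, the phosphoglycerate mutase Pgam1, the neuronal-type enolase Eno2, and the lactate dehydrogenases Ldha and Ldhb. At 4 h of curdlan 5.05% of all genes were called higher and 4.15% lower. Shares of this size can leave 8 genes without a call. After 2 h of curdlan none of the 8 had an unadjusted p under 0.05. At 4 h Tpi1 alone did, at −0.14 with a limma adjusted p of 0.0086. Their 95% intervals lay within 1.5-fold in every comparison, and at 4 h of curdlan no bound was farther than 0.35 from 0. These statements hold for the probe sets used. Ldhb has another probe set with a lower mean, which changed by −0.27 at 2 h and −0.31 at 4 h. Its unadjusted limma p were 0.048 and 0.028, and its limma adjusted p 0.17 and 0.067. The 95% interval of that probe set at 4 h was −0.58 to −0.04, so the level of Ldhb is less certain. Ldha, whose product makes lactate, changed by −0.01 at 2 h and −0.02 at 4 h.

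Promoter sequence was read for all 35 genes as the 250 bases before each RefSeq start site (GRCm38.p6), which gave 54 windows. The letters searched on both strands were ACGTG, the core of the hypoxia response element (HRE), then GGAAAA, the NFAT core, and lastly the E-box CACGTG, which contains the HRE core. The HRE core was in 46.3% of the gene set's windows beside 16.6% of all 32851 windows, and the E-box in 14.8% beside 6.02%. The NFAT core was in 18.5% of the windows beside 20.4% of all windows. The HRE core holds a CpG, and base composition was not accounted for. The windows of Pfkp and Hk2, the genes that rose, are shown with those of Ldha, which did not, and of Pfkm, which fell. Capitals mark the HRE core or the NFAT core on either strand, and each sequence runs 5′ to 3′ along its gene.
Pfkp (chr13:6648772-6649021, minus strand): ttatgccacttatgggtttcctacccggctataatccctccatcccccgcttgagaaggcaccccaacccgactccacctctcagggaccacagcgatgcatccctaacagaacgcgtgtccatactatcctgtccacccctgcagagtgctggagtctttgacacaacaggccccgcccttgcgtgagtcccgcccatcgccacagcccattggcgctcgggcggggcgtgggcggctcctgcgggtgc
Hk2 (chr6:82774455-82774704, minus strand): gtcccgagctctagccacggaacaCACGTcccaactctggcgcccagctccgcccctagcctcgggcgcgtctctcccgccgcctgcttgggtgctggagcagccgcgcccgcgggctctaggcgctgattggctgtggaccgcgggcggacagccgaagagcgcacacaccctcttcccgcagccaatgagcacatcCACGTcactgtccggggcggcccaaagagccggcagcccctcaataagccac
Ldha (chr7:46845554-46845803, plus strand, 1 of several starts): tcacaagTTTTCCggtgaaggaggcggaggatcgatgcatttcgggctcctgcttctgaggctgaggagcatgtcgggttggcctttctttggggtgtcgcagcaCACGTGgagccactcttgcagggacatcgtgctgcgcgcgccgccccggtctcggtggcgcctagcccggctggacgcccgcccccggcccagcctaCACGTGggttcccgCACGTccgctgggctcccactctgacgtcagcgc
Pfkm (chr15:98092339-98092588, plus strand, 1 of several starts): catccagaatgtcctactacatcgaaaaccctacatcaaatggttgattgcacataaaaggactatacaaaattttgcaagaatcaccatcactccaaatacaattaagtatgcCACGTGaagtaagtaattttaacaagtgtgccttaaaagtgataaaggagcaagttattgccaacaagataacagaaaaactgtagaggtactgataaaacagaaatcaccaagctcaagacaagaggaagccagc
The Pfkp window holds none of the 3 motifs. The Hk2 window holds 2 copies of the HRE core and no NFAT core. The Ldha window holds the E-box at 2 places, 1 further HRE core and 1 NFAT core, although Ldha was among the genes with the smallest changes. The Pfkm window holds 1 E-box. The other Pfkm windows hold 1 HRE core, no E-box and no NFAT core, and the other Ldha window holds none of the motifs. The Idh1 windows hold none of the motifs. A match or its absence describes these letters in this window and is no evidence of binding.

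At the pyruvate dehydrogenase step 1 of the 5 genes, the kinase gene Pdk1, was called at 4 h, and a further kinase gene, Pdk2, was lower by the adjusted p alone. Pdk1, a kinase that shuts off pyruvate dehydrogenase, read 8.22, 8.34 and 8.38 in nontreated cells, 8.13, 8.09 and 7.93 at 2 h, and 7.43, 7.63 and 7.69 at 4 h. The groups do not overlap and descend with time. The log2 fold change was −0.27 ± 0.07 at 2 h (limma adjusted p = 0.017) and −0.74 ± 0.07 at 4 h (limma adjusted p = 2.0e-06), the latter a 1.66-fold drop. Pdk2 changed by −0.29 at 4 h (limma adjusted p = 0.011, and 0.097 with arrays centred), and Pdk3 changed by −0.08 (limma adjusted p = 0.52). Pdha1 and Pdhb, the subunits of the first enzyme of the complex, changed by −0.11 and 0.02 at 4 h, with limma adjusted p of 0.052 and 0.84.

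Of the 9 genes grouped with the TCA cycle, 6 were lower at 4 h by the adjusted p alone and none higher, a share of 66.7% beside 23.2% of all genes. With genes under the lower quartile of mean level left out, 30.3% of all genes were lower. The 9 include the cytosolic enzymes Idh1 and Mdh1, and without them 4 of 7 were lower. With arrays centred on their medians 3 of the 9 were lower (Idh1, Idh2 and Fh1), and 2 of the 7. Of all genes 12.9% were lower on that scaling. There Sdha, Sdhb and Mdh1 no longer met the adjusted p. Idh1 had the largest change of the 33 genes. It encodes the cytosolic NADP-dependent isocitrate dehydrogenase, which runs beside the cycle rather than in it. Idh1 read 8.65, 9.08 and 9.01 in nontreated cells, 8.45, 8.67 and 8.20 at 2 h, and 7.61, 7.63 and 7.64 at 4 h. The nontreated and 2 h arrays overlap, and the 4 h arrays lie below both. The log2 fold change was −0.48 ± 0.12 at 2 h (limma adjusted p = 0.0081) and −1.29 ± 0.12 at 4 h (limma adjusted p = 6.8e-07), the latter a 2.45-fold drop. Between 2 h and 4 h it fell by 0.81 (limma adjusted p = 0.00012), the single gene of the set called lower in that comparison, where 1.30% of all genes were called lower. Nontreated replicate 1 was the lowest of its group, and without it the 2 h change was −0.61 and called. Without curdlan 2 h replicate 3, the other outlying array, the 2 h change was −0.36 and not called. Over 24 alternatives this change was called in 3, and its limma adjusted p reached 0.15.

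Fh1 encodes fumarase. It read 10.17, 10.13 and 10.13 in nontreated cells, 9.87, 9.85 and 10.01 at 2 h, and 9.62, 9.56 and 9.68 at 4 h. The 3 groups do not overlap, and the change at 4 h was −0.52 ± 0.05 (limma adjusted p = 1.0e-06), 1.44-fold.

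Idh2, the mitochondrial NADP-dependent isocitrate dehydrogenase, read 10.72, 10.69 and 10.65 in nontreated cells, 10.60, 10.58 and 10.58 at 2 h, and 10.34, 10.38 and 10.38 at 4 h. Its groups also descend without overlap, and the change at 4 h was −0.32 ± 0.04 (limma adjusted p = 8.6e-06). The succinate dehydrogenase subunit Sdha was lower at both times (−0.21 and −0.23). Sdhb (−0.14) and the cytosolic malate dehydrogenase Mdh1 (−0.22) also met the adjusted p at 4 h. Citrate synthase (Cs) changed by −0.02, the oxoglutarate dehydrogenase Ogdh by 0.00 and the mitochondrial malate dehydrogenase Mdh2 by −0.07 at 4 h, with limma adjusted p of 0.79, 0.95 and 0.15.

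The median change over the 19937 genes tested bears on the small changes. With the median change of all genes (−0.12 at 4 h) subtracted, Pfkp was at 1.10, Hk2 at 0.68, Pfkm at −0.56, Pdk1 at −0.62, Idh1 at −1.17 and Fh1 at −0.41, while Idh2 was at −0.21. Sdhb and Tpi1 were each at −0.02 on this scale.

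FK506 was added to ask which curdlan responses need calcineurin. No gene of the set was called between curdlan and curdlan with FK506, beside 1.12% of all genes at 2 h and 1.75% at 4 h. Before adjustment, 8 genes at 2 h and 11 at 4 h had p under 0.05, with no share of all genes given to set beside them. On the limma adjusted p alone, Pfkp and Hk2 were lower with FK506 at 2 h (3.09% of all genes) and Slc2a1 higher (4.48%). At 4 h Pfkp, Hk2 and Pfkfb4 were lower with FK506 (6.03% of all genes) and Slc16a3, Hk3 and Idh1 higher (5.64%). With arrays centred on their medians Hk2 at 2 h and Hk3 and Idh1 at 4 h no longer met the adjusted p (limma adjusted p = 0.069, 0.30 and 0.091). Whether FK506 acted differently at 2 h and 4 h was tested by limma as well, and none of the 33 genes was called (1.23% of all genes), with 8 at an unadjusted p under 0.05.

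The genes that rose with curdlan were lower when FK506 was present. Pfkp read 10.99, 11.02 and 11.09 at 2 h of curdlan with FK506, and 11.25, 11.27 and 11.27 at 4 h. These arrays lie above all nontreated arrays and below all arrays of curdlan alone. Curdlan exceeded curdlan with FK506 by 0.54 ± 0.04 at 2 h (limma adjusted p = 2.8e-06) and by 0.51 ± 0.04 at 4 h (limma adjusted p = 2.9e-06), each under 1.5-fold, with 95% intervals of 0.44 to 0.63 and 0.42 to 0.61 that reach it. Against nontreated cells Pfkp was 0.24 higher at 2 h and 0.47 higher at 4 h with FK506, where curdlan alone gave 0.78 and 0.98.

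Hk2 read 9.71, 9.77 and 9.81 at 2 h of curdlan with FK506, and 9.90, 9.87 and 9.89 at 4 h. It too lay between nontreated cells and curdlan alone at the same time. The difference from curdlan alone was 0.25 ± 0.06 at 2 h (limma adjusted p = 0.011) and 0.28 ± 0.06 at 4 h (limma adjusted p = 0.0034). The RefSeq-tied Hk1 probe set was also lower with FK506, by 0.19 at 2 h and 0.16 at 4 h, and the probe set with the highest mean gave −0.24 and 0.01, so no direction is given for Hk1.

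**Figure D3:**
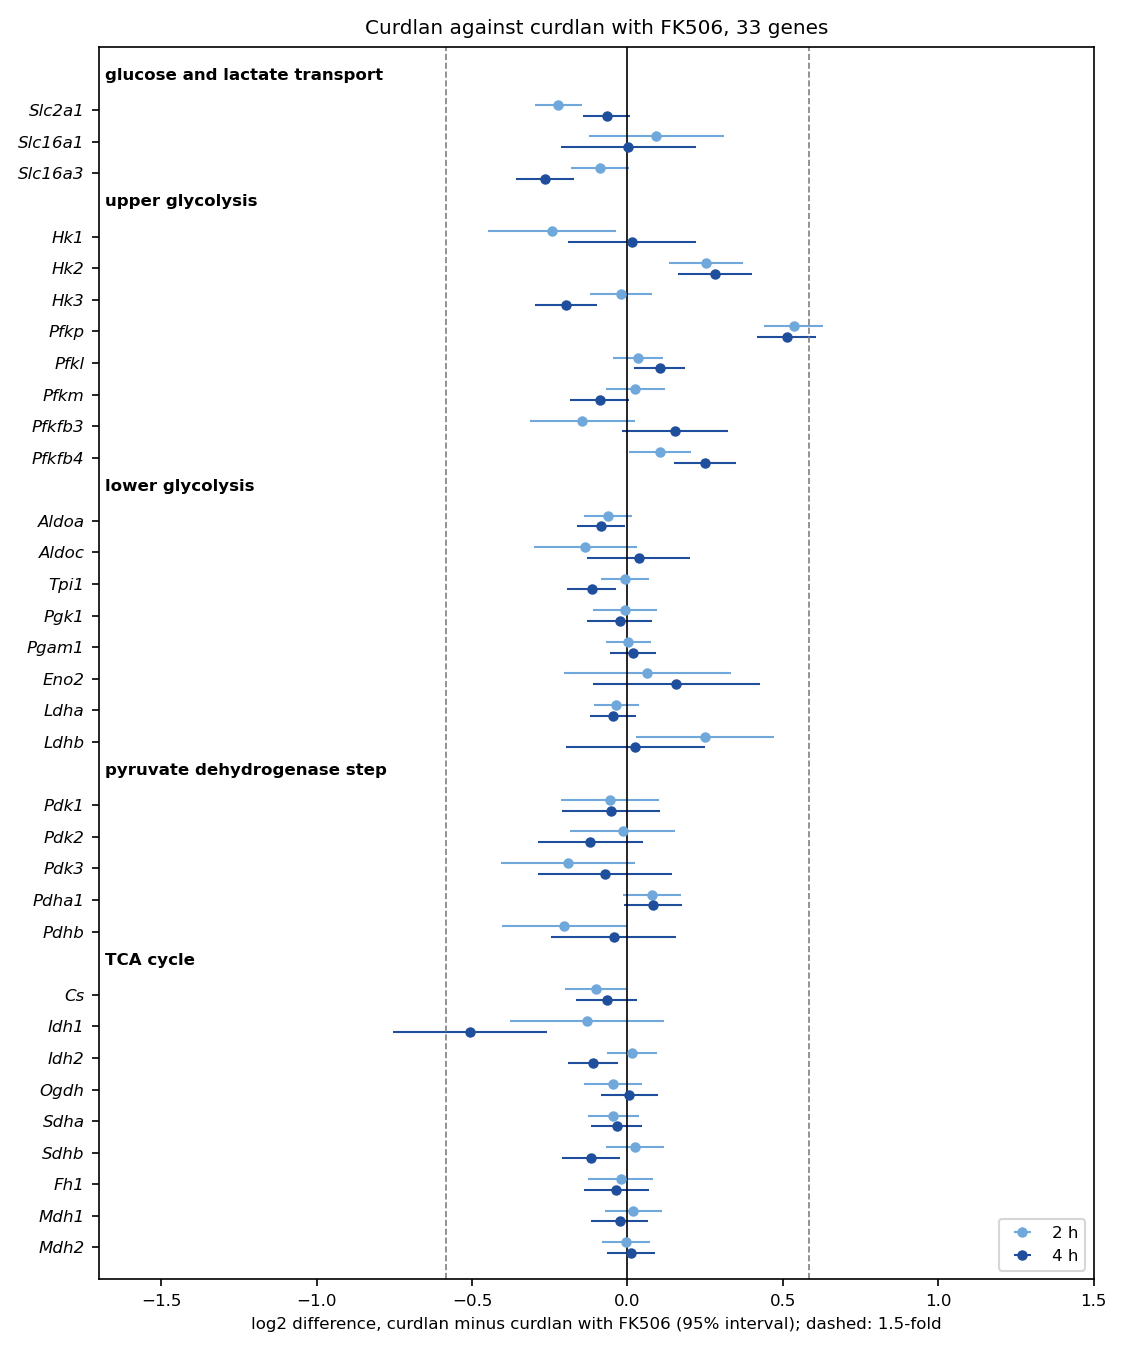
Log2 difference of each of the 33 measured genes, curdlan minus curdlan with FK506, at 2 h and 4 h, grouped by role, with points for the estimate and lines for its 95% interval from limma (3 arrays per group); dashed lines mark 1.5-fold. Pfkp and Hk2 lie to the right, that is lower with FK506, at both times, and Idh1 lies farthest to the left at 4 h.

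Among the genes that fell with curdlan, the values with FK506 were as follows. Pfkm read 7.93, 7.84 and 7.99 at 2 h with FK506 and 7.53, 7.49 and 7.45 at 4 h. Pdk1 read 8.11, 8.07 and 8.13, then 7.58, 7.71 and 7.60. Fh1 read 9.93, 9.93 and 9.92, then 9.62, 9.64 and 9.71. The Pdk1 and Fh1 arrays with FK506 overlap those of curdlan alone at both times, and those of Pfkm overlap at 2 h and lie slightly higher at 4 h. The differences at 4 h were −0.09 for Pfkm, −0.05 for Pdk1 and −0.04 for Fh1, with 95% intervals of −0.18 to 0.01, −0.21 to 0.10 and −0.14 to 0.07, all within 1.5-fold.

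Idh1 with FK506 read 8.58, 8.54 and 8.58 at 2 h and 8.09, 8.24 and 8.08 at 4 h. At 4 h these arrays lie between nontreated cells and curdlan alone, 0.51 ± 0.12 above the latter (limma adjusted p = 0.0095, 95% interval of curdlan minus curdlan with FK506 −0.76 to −0.26). The FK506 difference at 4 h minus that at 2 h was −0.38 with a limma adjusted p of 0.25, so a difference between the times was not shown.

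Pfkfb4 read 7.99, 8.05 and 8.07 at 2 h with FK506 and 7.81, 7.76 and 7.80 at 4 h. The 4 h arrays are the lowest of all groups, 0.25 ± 0.05 below curdlan alone (limma adjusted p = 0.0024). Idh2 read 10.55, 10.57 and 10.60, then 10.51, 10.44 and 10.48, with a 4 h difference of −0.11 (limma adjusted p = 0.075). Slc16a3 and Hk3 were higher with FK506 at 4 h (−0.26 and −0.20 as curdlan minus curdlan with FK506, limma adjusted p = 0.00089 and 0.012). Macrophage markers differed in both directions at this time. Mertk averaged 8.38 after 4 h of curdlan and 6.17 with FK506 and was called, while Csf1r averaged 11.5 and 11.8 and was higher with FK506 by the adjusted p alone (limma adjusted p = 1.6e-05). Adgre1, Fcgr1 and Cd68 did not meet the adjusted p. The mean over the 5 on an array ranged from 10.6 to 10.7 with curdlan and from 10.2 to 10.3 with FK506, and the part of these markers in the differences above was not tested.

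Set against nontreated cells, curdlan with FK506 gave no called gene of the set at 2 h (2.35% of all genes called, 13 of the 33 at an unadjusted p under 0.05) and 3 called lower at 4 h (2.43% of all genes called lower). The 3 were Pfkm (−0.59), Pdk1 (−0.68) and Idh1 (−0.78), each also lower with curdlan alone. The same nontreated arrays enter both comparisons. Pfkm was at the threshold, and its change ranged from −0.61 to −0.51 over the alternatives, 7 of which lost the call. On the adjusted p alone, 10 genes were lower and 2 higher at 4 h, beside 15.7% and 10.3% of all genes. With arrays centred on their medians 5 were lower and 2 higher, beside 8.48% and 10.1%.

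Other genes of the same pathways were read from lists. Of 19 measured further glycolysis and glucose uptake genes, 1 was called higher and 1 lower at 4 h, near the 5.05% and 4.15% of all genes. The glucose transporter gene Slc2a6 was higher by 0.65 at 2 h and 1.22 at 4 h, and by 0.61 and 1.09 with FK506, while the transporter gene Slc2a8 was lower at 4 h (−0.72). Pkm, whose product makes pyruvate, changed by −0.08 at 4 h (limma adjusted p = 0.26).

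Of 23 further pyruvate dehydrogenase and TCA cycle genes, 1 was called higher and 1 lower at 4 h, again near the 5.05% and 4.15% of all genes. On the adjusted p alone 17.4% were higher and 30.4% lower, beside 14.1% and 23.2% of all genes. Acod1 makes itaconate by drawing cis-aconitate out of the cycle. It read 6.44, 6.79 and 6.77 in nontreated cells, 9.10, 9.05 and 9.17 at 2 h, and 10.54, 10.57 and 10.61 at 4 h, changes of 2.44 ± 0.09 and 3.90 ± 0.09. With FK506 it read 8.11, 7.97 and 8.24, then 9.54, 9.55 and 9.61, at 4 h 1.01 ± 0.09 below curdlan alone (limma adjusted p = 3.2e-06). The groups do not overlap. Aco1, the cytosolic aconitase, was lower at 4 h (−0.66), and the subunit Idh3a of the NAD-dependent isocitrate dehydrogenase of the cycle was lower by the adjusted p alone (−0.36, limma adjusted p = 3.5e-06).

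Of 24 respiratory chain and ATP synthase genes, none was called by limma in any comparison. At 4 h of curdlan 5.05% of all genes were called higher and 4.15% lower. By the adjusted p 2 of the 24 were higher and 2 lower there, 8.33% each way beside 14.1% and 23.2% of all genes. Of the 24, 6 had an unadjusted p under 0.05. The median was 0.00 beside −0.12 over all genes. The largest changes were those of cytochrome c (Cycs, 0.36, limma adjusted p = 0.057) and of the complex I subunit Ndufa1 (0.24, limma adjusted p = 0.039). Of 9 pentose phosphate genes none was called at 4 h of curdlan, beside 5.05% of all genes called higher and 4.15% lower. Of the 9, 5 had an unadjusted p under 0.05 at that time. Pgd, the phosphogluconate dehydrogenase, was at 0.55 there and was called with FK506 (0.68). Of 8 glutamine and aspartate enzymes none was called at 4 h of curdlan, beside the same shares. Of the 8, 6 had an unadjusted p under 0.05. Shares of this size can leave lists this short without a call. The glutamine synthetase Glul was at −0.58 (limma adjusted p = 5.3e-05), just under the threshold, and was called with FK506 (−0.71).

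Of 19 measured hypoxia-inducible factor genes and targets, 3 were called higher and 2 lower at 4 h, where 5.05% of all genes were called higher and 4.15% lower. Ndrg1 (2.08), the histone demethylase Kdm3a (0.87) and the prolyl hydroxylase P4ha1 (0.67) were higher. The mitophagy gene Bnip3 (−0.91) and the HIF prolyl hydroxylase Egln1 (−0.59) were lower. Hif1a was higher at 2 h by the adjusted p alone (0.19, limma adjusted p = 0.013) and was at 0.04 at 4 h.

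Of 13 regulators, Myc, a driver of glycolytic gene transcription, was called higher at 2 h (0.89) and lower between 2 h and 4 h (−0.81). Ppargc1a, a coactivator of mitochondrial gene transcription, was called lower at 2 h (−0.70) and 4 h (−1.38). Ikbke, a kinase that acts with TBK1 upstream of hexokinase in activated DCs, was higher at 2 h (0.76) and 4 h (3.50), and was 1.27 lower with FK506 at 4 h. Mlxip, a glucose-sensing factor, was higher at 4 h (0.64), and Prkaa1, a catalytic subunit of AMP-activated kinase, was lower (−0.62). The lists were not tested as sets, and the plot of shares at 4 h sets each beside all genes.

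**Figure D4:**
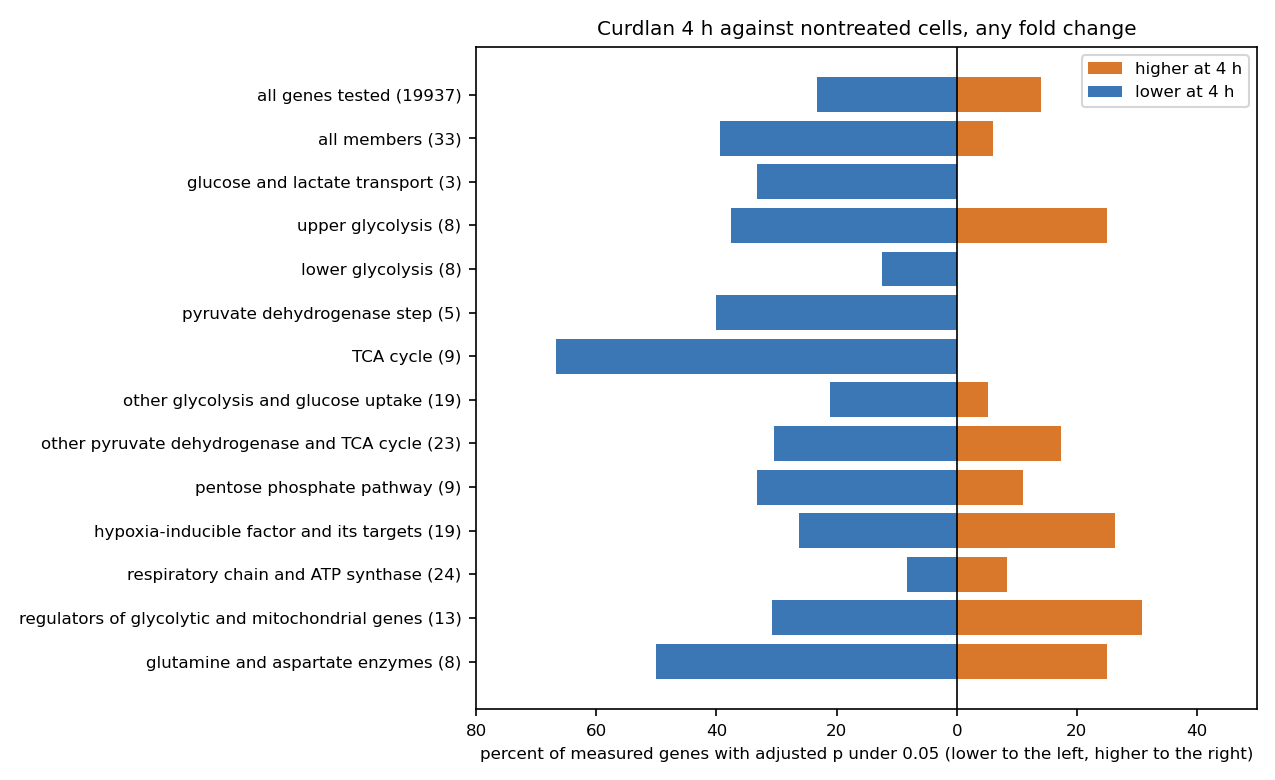
Percent of measured genes with a limma adjusted p under 0.05 after 4 h of curdlan, whatever the fold change, lower to the left and higher to the right, for all genes, the 33 genes, their roles and the pathway lists (number measured in brackets). The TCA cycle bar, which includes the cytosolic Idh1 and Mdh1, reaches 66.7% on the left beside 23.2% for all genes, and lower glycolysis and the respiratory chain are under the share of all genes. With arrays centred on their medians, not plotted, 3 of the 9 TCA cycle genes were lower, beside 12.9% of all genes.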

How the data were processed

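D1 cells were profiled on 15 Affymetrix Mouse Gene 1.0 ST arrays in 5 groups of 3, mapped from the labels. The values deposited by the authors are log2 intensities from RMA, run with affy in R 2.15.2 per the labels, which removes background, equalises the arrays by quantiles and summarises probes by median polish. Because arrays are made nearly equal in distribution over all probe sets, a shift of all of these together would not show. The annotation gave 21640 of 34760 probe sets 1 symbol, 1321 several and 11799 none. Only the first kind was used, which gave 19937 genes. Array medians over these genes (6.67 to 6.94) differed more than those over all probe sets (6.45 to 6.57). The median changes of all genes given above are those of this part. No low value was filtered. No 2 arrays were identical.

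Group means were modelled over the 15 arrays together (limma 3.58.1, R 4.3.3, 10 residual degrees of freedom), with empirical Bayes moderation and two-sided tests. Adjusted p values are Benjamini-Hochberg values over the 19937 genes, within each of 8 comparisons. The fit was tested on simulated data with independent noise of equal spread on every array, which does not cover the outlying arrays. FK506 comparisons are curdlan minus curdlan with FK506. Standard errors of log2 differences had a median of 0.077, and the number of arrays limits the precision.

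The genes, lists and comparisons were chosen with earlier results of these data known. Values on every array are given for genes called in at least 1 comparison and for the 5 others with the smallest adjusted p. Of each list, up to 4 called genes with the largest change are named, or the 2 with the largest change where none was called. Pkm, Idh3a, Hif1a, Pgd, Glul, Tpi1 and the further genes named with smaller changes were added after their values were seen. Alternatives were another normalization, centring, array weights, a filter on low means, averaged probe sets, another moderation, fewer arrays, a replicate block and no fold threshold. The other probe sets of Hk1 and Ldhb and the TCA cycle count without Idh1 and Mdh1 were added after seeing the data.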

Additional observations from a re-analysis of the deposited data

Results flagged for a closer look

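Idh1, which encodes the cytosolic NADP-dependent isocitrate dehydrogenase, had a level under curdlan that differed between the times. The log2 change from nontreated cells was −0.48 at 2 h and −1.29 at 4 h, and the test of the difference itself gave −0.81 (limma adjusted p = 0.00012), with every 4 h array below every 2 h array. The nontreated arrays cancel in this difference, in which time with curdlan and time in culture cannot be told apart. With FK506 present the mean of Idh1 also went from 8.57 at 2 h to 8.13 at 4 h.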

How the results depend on the processing

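Over the 8 comparisons, 190 of 200 alternative counts of called genes stayed within 1.5 times the count given. Without a fold threshold the counts were 8 for curdlan at 2 h, 15 for curdlan at 4 h, 8 and 12 for curdlan with FK506 at 2 h and 4 h, 3 and 6 for curdlan against curdlan with FK506 at 2 h and 4 h, and 10 for 4 h against 2 h. For curdlan at 2 h the count went from 1 to 2 with array weights (whose estimate did not converge), and ranged from 1 to 2 when each array was left out in turn, Idh1 being added without nontreated replicate 1 (−0.61) or without curdlan 2 h replicate 2 (−0.59). Leaving out each array in turn gave 4 to 5 genes for curdlan at 4 h and 2 to 3 for curdlan with FK506 at 4 h, and the count for 4 h against 2 h remained 1. No alternative reversed a called change. Replicate numbers gave no clear sign of pairing. Same-numbered arrays correlated in their deviations from the group means between −0.73 and 0.58 over 21 pairs. Of these, 8 were above 0.1 and 9 were best with their own number. How the replicates were processed is not stated, so pairing was neither shown nor excluded. A replicate block left the count at 4 for curdlan at 4 h and at 1 at 2 h and moved no count beyond 1.5 times. With 3 arrays a group, changes near 1.5-fold, those of Hk2 and Pfkm among them, fall on either side of the threshold.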
